A study of Mus musculus with 16 samples.

Results

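The proteasome genes of the mouse left ventricle were examined in hearts with and without a cardiomyocyte transgene for endothelial nitric oxide synthase, with and without pressure overload. They were taken as every gene on the array whose name starts with Psma, Psmb, Psmc, Psmd or Psme followed by a digit, which gave 43 of the 27670 genes on the array, measured by 64 probes. Each gene was read from its brightest probe over all arrays. The choice used names and mean brightness only, and all 43 genes were well above background on 16 of 16 arrays.

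RNA from a mid-ventricular piece of left ventricle was taken from single mice and hybridised to one-colour Agilent arrays, 1 array per mouse. The NOS3-TG TAC group held alpha-MHC-NOS3 mice, in which the alpha-myosin heavy chain promoter directs Nos3 to cardiomyocytes, taken 10 weeks after TAC. TAC is transverse aortic constriction, in which the aorta is tied partly shut and the ventricle must pump against a higher pressure. The WT TAC group held wild type littermates at 10 weeks after the same operation. The NOS3-TG baseline and WT baseline groups held unoperated mice of either genotype. Each group had 4 mice, 2 males and 2 females, of a C57BL/6 N background after 7 generations of backcrossing, and matched for age and weight. No sham operation is among the samples analysed here, so surgery and load cannot be told apart, and how many founder lines stand behind the transgenic mice was not stated.

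The proteasome is the barrel-shaped protease that degrades ubiquitin-tagged proteins. Its core is built of alpha and beta rings, and the catalytic sites sit on the beta subunits Psmb5, Psmb6 and Psmb7. Under interferon or other inflammatory signals cells replace these with Psmb8, Psmb9 and Psmb10 and form the immunoproteasome, which is abundant in immune cells and shapes peptides for presentation. Regulatory caps open the core: the ATP-driven regulatory particle, with its ATPase ring, scaffold and lid, takes up tagged proteins, while the activators Psme1 with Psme2, Psme3 and Psme4 open it without ATP. In heart muscle this system turns over sarcomere and signalling proteins.

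Signal is given as log2 relative signal, the log2 processed intensity of the probe minus that array's 75th percentile, so that 1 unit is a doubling and levels of different genes cannot be set against each other. A gene was called where the moderated test of limma, fitted over all 15658 genes measured, gave an adjusted p below 0.05 after Benjamini-Hochberg adjustment. Errors of differences are standard errors from that fit, and errors of group means are SDs over 4 arrays. In samples of whole tissue, fewer cells of a type and less RNA per cell cannot be told apart.

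The share of probes well above background ran from 44.2% to 68.0% over the arrays, with a median of 52.5%. The 3 arrays farthest from the median were replicate 2 of NOS3-TG baseline at 44.2%, replicate 3 of NOS3-TG TAC at 46.2% and replicate 4 of NOS3-TG TAC at 68.0%. Nos3 was 6.58 higher on the log2 scale in NOS3-TG than in WT at baseline and 5.69 higher after TAC. All 10 cardiomyocyte markers were measured, with a mean log2 relative signal of at least 6.63 on every array. The load marker Nppb, which encodes B-type natriuretic peptide, was higher after TAC by 2.08 in NOS3-TG and by 2.94 in WT. At baseline Nppb was already 1.04 higher in NOS3-TG than in WT, with arrays apart (adjusted p = 0.155 by limma). After TAC it was 0.17 higher. The difference between its responses was -0.87 ± 0.41 (adjusted p = 0.678 by limma). Other load markers differed after TAC in NOS3-TG and WT by 1.75 and 2.06 (Nppa) and by 2.56 and 2.45 (Acta1). For Myh7 the differences were 0.62, not called, and 0.88. The arrays lay on 4 slides, each with both genotypes and sexes, and 2 slides held the TAC arrays and the others the baseline arrays, so that a slide lies wholly within one condition. On every slide the NOS3-TG arrays lay at positions 1 and 2 and the WT arrays at positions 3 and 4, so that genotype and position cannot be told apart. One TAC slide was scanned on a second day.

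After TAC some of the activators and a few core subunits differed from baseline, with 2 of 4 activators called in NOS3-TG and 3 of 4 in WT, and most proteasome genes stayed within a narrow range. Psme3 and the immunoproteasome subunit Psmb10 rose after TAC in both genotypes, and Psme1 fell in both. In WT the activator Psme4 and the core subunits Psmb3 and Psmb6 also fell, and the lid subunit Psmd7 rose on its brightest probe. Psme3, Psmb10, Psme1 and Psmb6 were each measured by 1 probe. Among the 16 genes with several measured probes, 7 had another probe of opposite sign over both genotypes. Of 43 proteasome genes, 2 were called higher and 1 lower in NOS3-TG TAC against NOS3-TG baseline, or 6.98%. Over all genes tested 11.8% were called, 6.48% higher and 5.36% lower. In WT TAC against WT baseline 3 were called higher and 4 lower, or 16.3%. Over all genes tested 28.5% were called, 10.9% higher and 17.6% lower. Both shares lay below those over all genes.

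The sizes of the changes were small. The median absolute log2 difference of the proteasome genes was 0.08 in NOS3-TG and 0.12 in WT, beside 0.19 and 0.24 over all genes tested. Their standard errors were smaller too, with a median of 0.083 beside 0.132 over all genes tested in either genotype. The 43 genes were well above background on all 16 arrays, while a gene tested needed only 4, and the sets were not matched for brightness. The median signed difference of the proteasome genes was 0.01 in each genotype, where that over all genes was 0.00 in NOS3-TG and -0.06 in WT. Apart from Psme1, Psme3, Psme4 and Psmb10, the other 39 genes lay between -0.21 and 0.35 in NOS3-TG and between -0.27 and 0.27 in WT. Over 8 arrays after TAC against 8 at baseline, 5 genes were called higher and 6 lower, or 25.6%. Over all genes tested 37.2% were called, 16.3% higher and 20.9% lower.

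Groups that did not overlap were counted apart from the test. In NOS3-TG 4 proteasome genes had all TAC arrays above all baseline arrays (Psme3, Psmb10, Psmd7 and Psmd10) and 3 had them below (Psme1, Psmb6 and Psmb7), where 9.18% and 7.45% of all genes did. In WT 3 were above (Psme3, Psmb10 and Psmd7) and 5 below (Psme1, Psme4, Psmb3, Psmb6 and Psmc2), where 10.2% and 17.3% of all genes were. Under quantile normalization the split of calls in WT turned to 7 higher and 1 lower, and in the log2 values of the authors to 5 higher and 3 lower. The responses of the 43 genes in NOS3-TG and in WT had the same sign in 33 cases, or 76.7%, beside 77.1% of all genes tested.

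**Figure D1:**
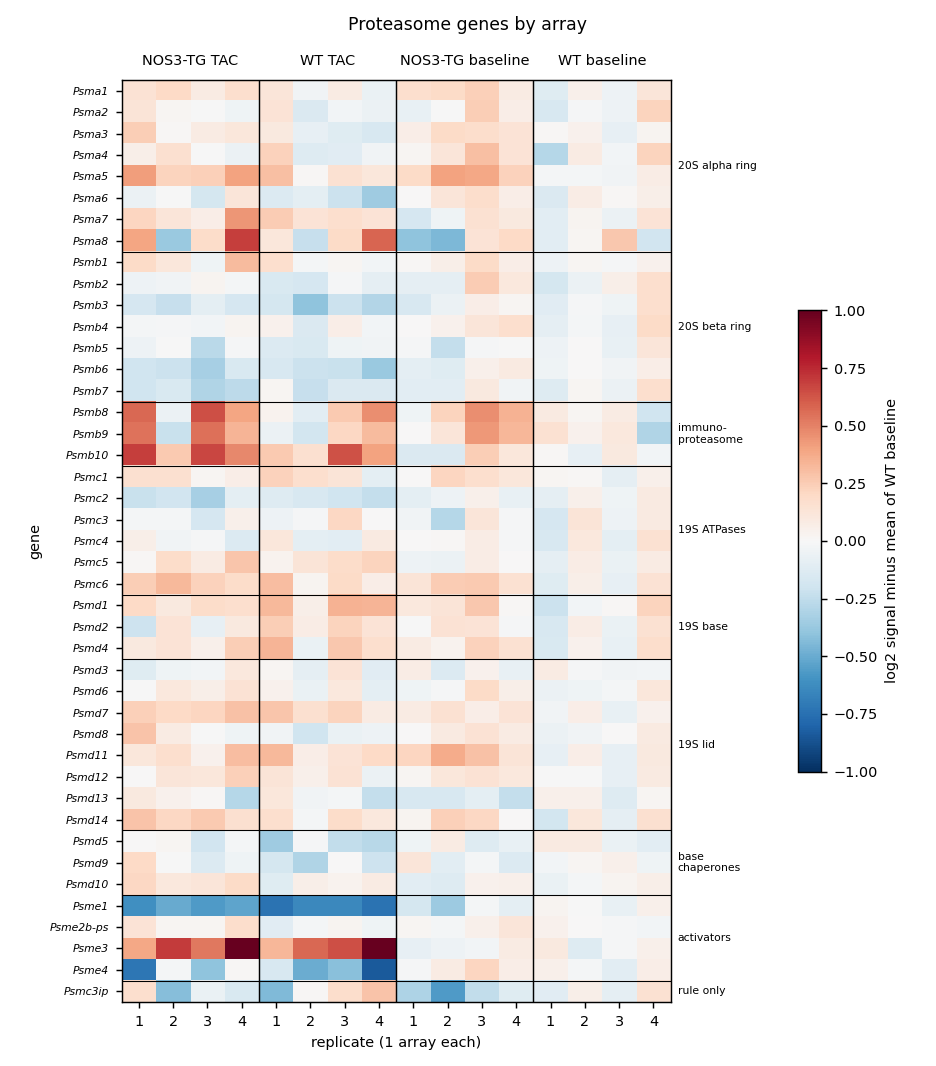
Each row is a proteasome gene, grouped by role, and each column an array, with the 4 NOS3-TG TAC arrays at the left and the WT baseline arrays at the right. Colour gives log2 signal minus the mean of the WT baseline arrays, and it is deepest in the rows of Psme1, Psme3, Psme4 and Psmb10.

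**Figure D2:**
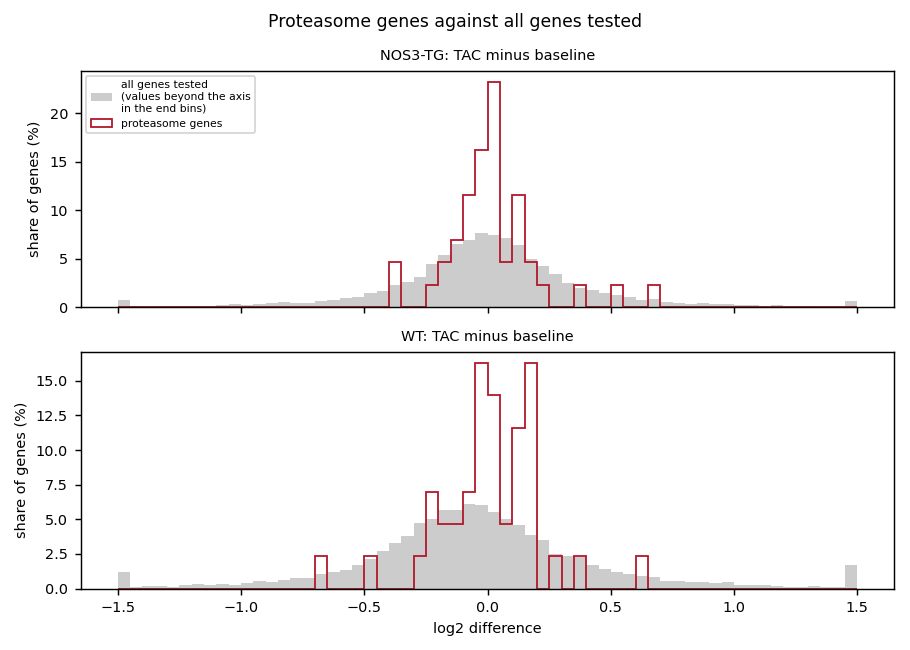
Histograms of the log2 difference between TAC and baseline in NOS3-TG (top) and WT (bottom), as the share of genes in each bin. The line for the 43 proteasome genes is narrower than the grey area for the 15658 genes tested, with a median absolute difference of 0.08 against 0.19 in NOS3-TG and 0.12 against 0.24 in WT. The sets were not matched for brightness.

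The activators held the largest changes in both directions. Psme3 encodes the nuclear activator often called REG-gamma, which forms a ring of identical subunits. In NOS3-TG it had a log2 relative signal of 2.84, 3.15, 2.98 and 3.46 on the TAC arrays, against 2.37, 2.41, 2.43 and 2.54 on the baseline arrays. In WT it had 2.79, 3.03, 3.10 and 3.48 on the TAC arrays, against 2.55, 2.32, 2.44 and 2.51 on the baseline arrays. Every TAC array lay above every baseline array across both genotypes, and replicate 4 was the highest TAC array in each. The rise was 0.67 ± 0.13 in NOS3-TG, or 1.59-fold (adjusted p = 0.00687 by limma), and 0.64 ± 0.13 in WT, or 1.56-fold (adjusted p = 0.00356 by limma). Without the 3 arrays farthest in share above background the value in NOS3-TG was 0.53 and no longer called (adjusted p = 0.111 by limma). Psme3 was the one proteasome gene whose TAC arrays all lay above all baseline arrays over both genotypes, where 3.44% of all genes did so.

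Psme1 and Psme2 encode the partner subunits of the cytoplasmic activator ring that interferon gamma induces. Psme1 had a log2 relative signal of 5.24, 5.35, 5.29 and 5.33 in NOS3-TG TAC, against 5.68, 5.50, 5.84 and 5.76 in NOS3-TG baseline. In WT TAC it had 5.12, 5.21, 5.22 and 5.12, against 5.88, 5.85, 5.78 and 5.91 in WT baseline. The TAC arrays lay below all baseline arrays in both genotypes, and the arrays within each TAC group lay close together. The fall was -0.39 ± 0.08 in NOS3-TG (0.763-fold, adjusted p = 0.00702 by limma) and -0.69 ± 0.08 in WT (0.620-fold, adjusted p = 0.000149 by limma). In a fit of the NOS3-TG arrays alone the fall was no longer called (adjusted p = 0.0562 by limma). Psme1 and Psmb6 were the 2 proteasome genes with all TAC arrays below all baseline arrays over both genotypes, where 3.2% of all genes did so.

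The partner of Psme1 is named Psme2b-ps in the files, after a near-identical copy of Psme2, and the signal of the copies was not separated here. It had 5.44, 5.33, 5.32 and 5.48 in NOS3-TG TAC, against 5.32, 5.28, 5.36 and 5.42 in NOS3-TG baseline. The WT TAC arrays gave 5.19, 5.28, 5.33 and 5.26, against 5.35, 5.30, 5.29 and 5.27 in WT baseline. The groups overlapped in both genotypes. Its difference was 0.04 ± 0.06 in NOS3-TG and -0.04 ± 0.06 in WT, neither of them called, and a second probe gave 0.04 and -0.05.

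Psme4 encodes a large nuclear activator known for its part in histone degradation. It had 5.80, 6.50, 6.12 and 6.53 in NOS3-TG TAC, against 6.51, 6.60, 6.73 and 6.58 in NOS3-TG baseline. In WT TAC it had 6.36, 6.02, 6.10 and 5.68, against 6.57, 6.50, 6.41 and 6.58 in WT baseline. The TAC arrays were more spread than the baseline arrays, and they lay wholly below baseline in WT and overlapped in NOS3-TG. The fall was -0.48 ± 0.16 in WT (adjusted p = 0.0438 by limma) and the difference in NOS3-TG was -0.37 ± 0.16 (adjusted p = 0.157 by limma). The other 2 measured probes of Psme4 were also lower after TAC, by -0.19 and -0.15 in NOS3-TG and by -0.57 and -0.18 in WT. The call in WT was lost on leaving out any of 11 single arrays, of either genotype, with adjusted p by limma between 0.0505 and 0.147, the last without replicate 4 of WT TAC at -0.34.

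**Figure D3:**
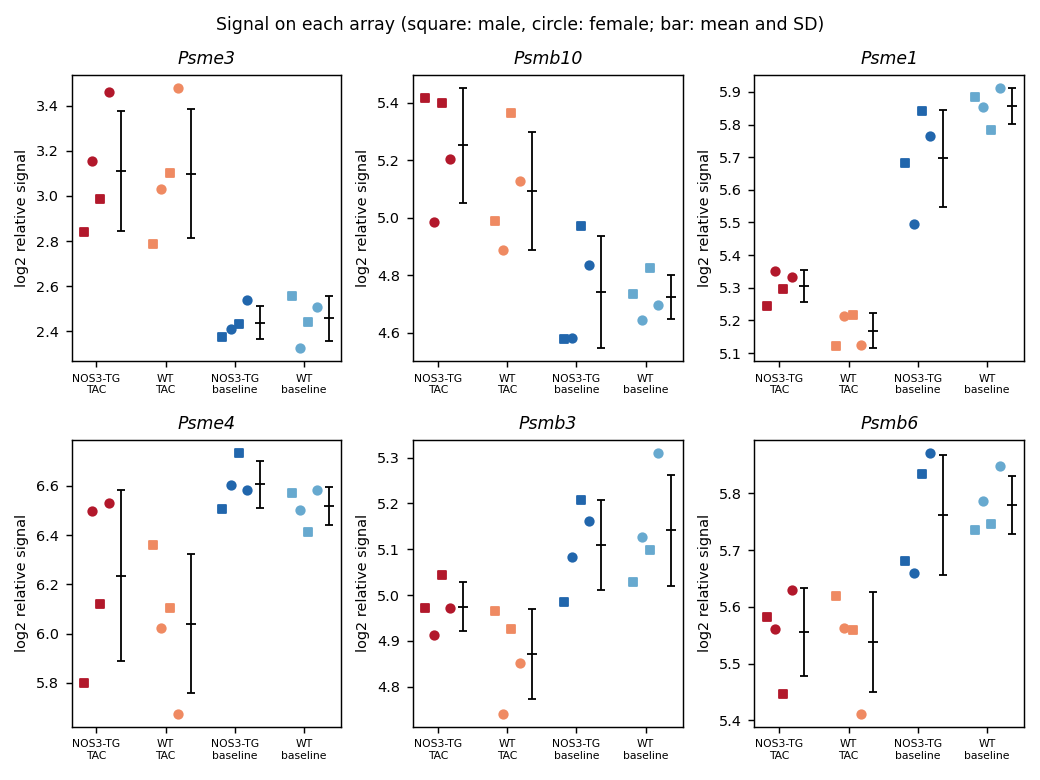
Log2 relative signal of 6 proteasome genes on each array, with squares for males, circles for females and a bar for the mean and SD of 4 arrays. The TAC arrays of Psme3 and Psmb10 sit above, and those of Psme1 and Psmb6 below, the baseline arrays of the same genotype, while Psme4 in NOS3-TG overlaps.

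The promoters are shown for the genes called in NOS3-TG or WT that had one in the table, all but Psmd7, because transcription factors of the stress and interferon responses are known to act on proteasome genes through short motifs. Each runs from 250 bases before to 50 bases after the RefSeq start on build GRCm38.p6, read along the gene. Capitals mark the antioxidant response element core TGACNNNGC or the interferon-stimulated response element, GAAA repeated after a gap of 2 bases, both searched on either strand. Psme3 lies at chr11:101315963-101316262 on the plus strand, Psmb10 at chr8:105938343-105938642 on the minus strand and Psme1 at chr14:55578244-55578543 on the plus strand. Psme4 lies at chr11:30771525-30771824, Psmb6 at chr11:70525107-70525406 and Psmb3 at chr11:97703184-97703483, all on the plus strand.
Psme3: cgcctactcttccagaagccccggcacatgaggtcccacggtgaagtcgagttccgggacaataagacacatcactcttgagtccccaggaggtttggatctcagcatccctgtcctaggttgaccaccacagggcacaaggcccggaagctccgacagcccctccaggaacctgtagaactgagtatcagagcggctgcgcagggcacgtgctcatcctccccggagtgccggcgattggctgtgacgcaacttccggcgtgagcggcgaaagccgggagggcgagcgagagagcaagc
Psmb10: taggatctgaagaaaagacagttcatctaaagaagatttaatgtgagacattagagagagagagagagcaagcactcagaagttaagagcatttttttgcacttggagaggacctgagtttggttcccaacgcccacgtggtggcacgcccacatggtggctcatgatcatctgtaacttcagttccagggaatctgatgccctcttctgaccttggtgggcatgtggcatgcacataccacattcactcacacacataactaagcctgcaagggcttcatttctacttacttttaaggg
Psme1: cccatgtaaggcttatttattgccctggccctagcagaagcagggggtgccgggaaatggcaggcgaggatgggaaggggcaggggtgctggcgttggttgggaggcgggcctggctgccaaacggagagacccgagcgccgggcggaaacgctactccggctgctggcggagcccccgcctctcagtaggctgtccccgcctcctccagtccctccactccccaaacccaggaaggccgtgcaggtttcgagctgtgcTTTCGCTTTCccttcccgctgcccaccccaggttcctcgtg
Psme4: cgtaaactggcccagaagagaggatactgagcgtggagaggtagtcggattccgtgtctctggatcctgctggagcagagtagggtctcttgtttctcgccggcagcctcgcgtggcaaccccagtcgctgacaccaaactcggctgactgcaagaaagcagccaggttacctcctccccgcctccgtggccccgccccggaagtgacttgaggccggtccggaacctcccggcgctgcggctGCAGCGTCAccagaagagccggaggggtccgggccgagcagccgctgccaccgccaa
Psmb6: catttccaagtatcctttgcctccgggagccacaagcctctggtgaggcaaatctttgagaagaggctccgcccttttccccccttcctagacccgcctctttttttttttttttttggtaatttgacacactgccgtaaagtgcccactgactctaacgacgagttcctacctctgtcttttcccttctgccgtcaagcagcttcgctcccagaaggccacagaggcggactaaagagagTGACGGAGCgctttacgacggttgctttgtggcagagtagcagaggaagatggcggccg
Psmb3: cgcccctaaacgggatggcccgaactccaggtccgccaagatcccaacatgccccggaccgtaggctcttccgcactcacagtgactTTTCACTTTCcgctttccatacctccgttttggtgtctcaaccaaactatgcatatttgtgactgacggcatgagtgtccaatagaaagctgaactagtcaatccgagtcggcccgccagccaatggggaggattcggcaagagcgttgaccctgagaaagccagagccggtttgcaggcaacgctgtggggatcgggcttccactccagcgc
The windows of Psme3 and Psmb10, which rose, held neither run of letters. Psme1 held the interferon motif on the minus strand from base 10 after the start, Psme4 the antioxidant motif on the minus strand from base -7, and Psmb6 the antioxidant motif on the plus strand from base -9. Psmb3 held the interferon motif on the minus strand from base -163. RefSeq promoters were matched by symbol for 35 proteasome genes, and Psma8, Psmb1, Psmb2, Psmb7, Psmc3, Psmd3, Psmd7 and Psme2b-ps were not matched. The antioxidant motif was in 6 of these 35, or 17.1%, beside 14.0% of all 27025 genes with a promoter in the table. Its members were Psmb5, Psmb6, Psmc6, Psmd9, Psmd12 and Psme4. The interferon motif was in 4 of the 35, Psmb3, Psmd4, Psmd9 and Psme1, or 11.4%, beside 3.99%.

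The alpha ring, which gates entry to the core, showed no call in either genotype over its 8 genes. Its differences ran from -0.12 to 0.35 in NOS3-TG and from -0.20 to 0.17 in WT. The upper value in NOS3-TG belonged to Psma8, a germ-cell form of Psma7, at 0.35 ± 0.24. Over both genotypes Psma7 rose by 0.19 ± 0.07 (adjusted p = 0.0415 by limma) and Psma6 fell by 0.16 on the log2 scale, with a standard error of 0.06 (adjusted p = 0.0430 by limma). Both calls were marginal, that of Psma7 being lost on leaving out any of 10 single arrays (adjusted p by limma up to 0.0892) and that of Psma6 any of 12 (up to 0.0885).

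The constitutive beta ring carries the proteolytic sites. Of its 7 genes, 6 had a negative difference after TAC in NOS3-TG and 6 in WT, and the median was -0.09 in NOS3-TG and -0.11 in WT. Over all genes tested the difference was negative in 7857 of 15658 in NOS3-TG and 8939 of 15658 in WT. In WT 2 of the 7 were called lower, where 17.6% of all genes were, and in NOS3-TG none was, with unadjusted p under 0.05 for 2. Psmb6, the caspase-like site, had 5.58, 5.56, 5.45 and 5.63 in NOS3-TG TAC, against 5.68, 5.66, 5.83 and 5.87 in NOS3-TG baseline. The WT TAC arrays gave 5.62, 5.56, 5.56 and 5.41, against 5.74, 5.79, 5.75 and 5.85 in WT baseline. TAC arrays lay below baseline arrays throughout. The fall was -0.24 ± 0.07 in WT (adjusted p = 0.0284 by limma), and the difference in NOS3-TG was -0.21 ± 0.07 (adjusted p = 0.0892 by limma). The call in WT was lost without replicate 4 of WT TAC or without replicate 2, 3 or 4 of WT baseline, with adjusted p by limma between 0.0555 and 0.0939. It was also lost under quantile normalization, at -0.14 (adjusted p = 0.0795 by limma), with scan day as a block, at -0.21 (adjusted p = 0.108), with no filter on dim probes and in a fit of the WT arrays alone.

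Psmb3 is a structural subunit of the beta ring. It had 4.97, 4.91, 5.04 and 4.97 in NOS3-TG TAC, against 4.98, 5.08, 5.21 and 5.16 in NOS3-TG baseline. In WT TAC it had 4.97, 4.74, 4.93 and 4.85, against 5.03, 5.13, 5.10 and 5.31 in WT baseline. The groups were apart in WT and overlapped in NOS3-TG. The fall was -0.27 ± 0.08 in WT (adjusted p = 0.0252 by limma), where a second probe gave -0.35, and the difference in NOS3-TG was -0.13 ± 0.08. The call was lost without replicate 2 or 4 of WT TAC or without replicate 2 or 4 of WT baseline, with adjusted p by limma between 0.0553 and 0.0789. It was also lost under quantile normalization, at -0.18 (adjusted p = 0.119 by limma), in the log2 values of the authors, with no filter on dim probes and in a fit of the WT arrays alone.

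Psmb7 is the trypsin-like site. It had 3.41, 3.46, 3.31 and 3.35 in NOS3-TG TAC, against 3.51, 3.51, 3.71 and 3.58 in NOS3-TG baseline. The WT TAC arrays gave 3.63, 3.38, 3.47 and 3.47, against 3.49, 3.63, 3.55 and 3.78 in WT baseline. The groups were apart in NOS3-TG and overlapped in WT, and the differences of -0.19 ± 0.08 in NOS3-TG and -0.12 ± 0.08 in WT were not called.

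Psmb5 is the chymotrypsin-like site. It had 4.71, 4.75, 4.49 and 4.74 in NOS3-TG TAC, against 4.75, 4.51, 4.74 and 4.75 in NOS3-TG baseline. In WT TAC it had 4.62, 4.60, 4.72 and 4.72, against 4.71, 4.76, 4.68 and 4.88 in WT baseline. The groups overlapped in both genotypes, with differences of -0.02 ± 0.08 in NOS3-TG and -0.09 ± 0.08 in WT.

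Of the immunoproteasome subunits, Psmb10 rose and the other 2 did not pass the test. Psmb10, which takes the place of Psmb7, had 5.42, 4.99, 5.40 and 5.20 in NOS3-TG TAC, against 4.58, 4.58, 4.97 and 4.84 in NOS3-TG baseline. The WT TAC arrays gave 4.99, 4.89, 5.36 and 5.13, against 4.74, 4.64, 4.83 and 4.70 in WT baseline. TAC arrays lay above baseline arrays within each genotype. The rise was 0.51 ± 0.11 in NOS3-TG (1.42-fold, adjusted p = 0.0131 by limma) and 0.37 ± 0.11 in WT (1.29-fold, adjusted p = 0.0283 by limma). The call in WT was lost without replicate 3 or 4 of WT TAC or replicate 1, 2 or 3 of WT baseline (adjusted p by limma between 0.0579 and 0.0877). That call was also lost with no filter on dim probes, normexp, scan day as a block or a fit of the WT arrays alone. It was lost too without the 3 arrays farthest in share above background, and adjusted p by limma reached 0.129 over these alternatives. In NOS3-TG it was lost without the 3 arrays farthest in share above background, at 0.43 (adjusted p = 0.162 by limma), and with scan day as a block, at 0.41 (adjusted p = 0.0621 by limma).

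Psmb8, which takes the place of Psmb5, had 2.92, 2.28, 2.98 and 2.74 in NOS3-TG TAC, against 2.30, 2.57, 2.81 and 2.69 in NOS3-TG baseline. In WT TAC it had 2.38, 2.24, 2.61 and 2.81, against 2.44, 2.37, 2.42 and 2.15 in WT baseline. All groups overlapped, replicate 2 of NOS3-TG TAC being among the lowest arrays. The differences were 0.14 ± 0.16 in NOS3-TG, with a 95% interval of -0.21 to 0.49, and 0.17 ± 0.16 in WT, with an interval of -0.18 to 0.51.

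Psmb9, which takes the place of Psmb6, had 2.33, 1.57, 2.34 and 2.12 in NOS3-TG TAC, against 1.79, 1.91, 2.22 and 2.12 in NOS3-TG baseline. The WT TAC arrays gave 1.73, 1.61, 2.00 and 2.10, against 1.94, 1.83, 1.89 and 1.49 in WT baseline. It followed Psmb8 from array to array, with the same low replicate in NOS3-TG TAC. The differences were 0.08 ± 0.17 in NOS3-TG and 0.07 ± 0.17 in WT, and the groups overlapped.

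Markers of several cell types differed between TAC and baseline in the same samples. The marker counts here and below stand beside 10.9% of all genes called higher and 17.6% lower in WT. In NOS3-TG those shares were 6.48% and 5.36%, so more calls in WT are found over all genes too. In WT 7 of 11 macrophage markers were called higher after TAC and in NOS3-TG 2 of 11. Their mean log2 relative signal ran from 0.93 to 1.59 in NOS3-TG TAC, against 0.98 to 1.16 in NOS3-TG baseline. It ran from 0.56 to 1.22 in WT TAC, against 0.27 to 0.53 in WT baseline, so that the arrays were apart in WT and overlapped in NOS3-TG. Of 10 lymphocyte markers 5 were measured, and Cd4, Cd8a, Ms4a1, Cd79a and Gzma were not. None of the 5 was called in NOS3-TG and 1 was called lower in WT. Their mean ran from -3.46 to -2.69 in NOS3-TG TAC, against -3.63 to -2.66 in NOS3-TG baseline, and from -4.45 to -3.16 in WT TAC, against -3.58 to -3.42 in WT baseline, with overlap in both genotypes.

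Of 8 fibroblast markers 1 was called higher in NOS3-TG and 4 in WT. Their mean ran from 3.57 to 4.22 in NOS3-TG TAC, against 3.13 to 3.76 in NOS3-TG baseline, and from 3.66 to 4.36 in WT TAC, against 3.02 to 3.75 in WT baseline. Of 7 endothelial markers 1 was called higher in NOS3-TG and 4 in WT. Their mean ran from 2.74 to 2.91 in NOS3-TG TAC, against 2.35 to 2.75 in NOS3-TG baseline, and from 2.96 to 3.10 in WT TAC, against 2.63 to 2.75 in WT baseline, where the arrays did not overlap. Of 10 cardiomyocyte markers none was called in NOS3-TG and 3 were called lower in WT, and the difference was negative for 10 of 10 in each genotype. Their mean ran from 6.63 to 7.06 in NOS3-TG TAC, against 6.90 to 7.22 in NOS3-TG baseline, and from 6.71 to 7.03 in WT TAC, against 7.03 to 7.32 in WT baseline, again with no overlap in WT. Of 7 smooth muscle and pericyte markers 1 was called higher and 1 lower in each genotype, and their mean ran from 2.55 to 3.01 in NOS3-TG TAC, against 2.64 to 3.23 in NOS3-TG baseline, and from 2.91 to 3.25 in WT TAC, against 3.11 to 3.85 in WT baseline. The part of these cells in the proteasome genes that differed after TAC was not tested.

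Differences within an array between a replaceable subunit and its replacement do not depend on the scaling of the array. Centred on the WT baseline mean, Psmb10 minus Psmb7 averaged 0.75 ± 0.25 in NOS3-TG TAC, against 0.05 ± 0.11 in NOS3-TG baseline. It averaged 0.49 ± 0.23 in WT TAC, against WT baseline arrays between -0.20 and 0.16. TAC and baseline arrays were apart in each genotype. Psmb10 alone was already apart in each genotype, and in NOS3-TG Psmb7 was apart the other way. In NOS3-TG the separation of their difference follows from that and adds no support. In WT Psmb7 overlapped, so there the separation rests largely on Psmb10. Psmb8 minus Psmb5 ran from -0.06 to 0.91 in NOS3-TG TAC, against -0.03 to 0.48 in NOS3-TG baseline, and from 0.05 to 0.50 in WT TAC, against -0.32 to 0.16 in WT baseline. Psmb9 minus Psmb6 overlapped between TAC and baseline in both genotypes as well. Among the activators, Psme3 minus Psme1 averaged 1.21 ± 0.23 in NOS3-TG TAC, against 0.14 ± 0.14 in NOS3-TG baseline. It averaged 1.33 ± 0.30 in WT TAC, against WT baseline arrays between -0.13 and 0.07. These 2 genes do not replace each other. Each was already apart between TAC and baseline, so the separation of their difference follows from that and adds no support.

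**Figure D4:**
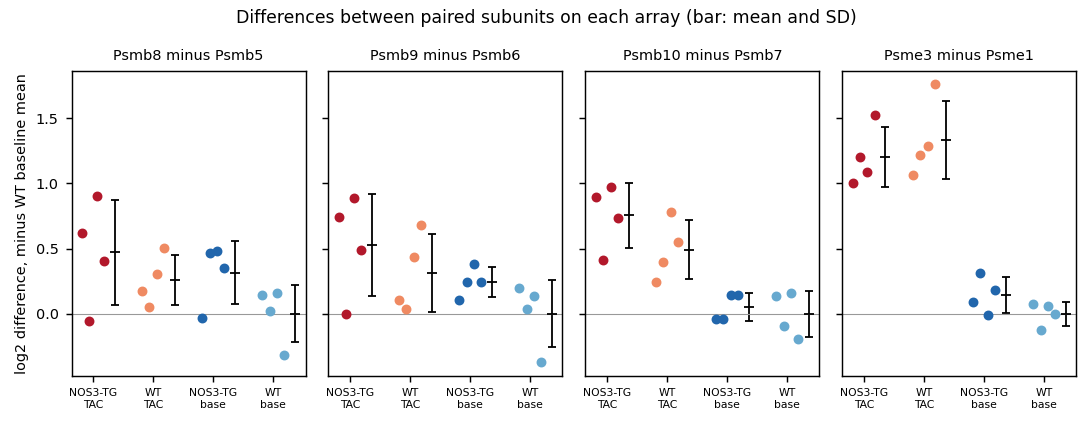
Log2 difference between 2 subunits on the same array, centred on the WT baseline mean, with 4 arrays per group and a bar for the mean and SD. Psmb10 minus Psmb7 is apart between TAC and baseline within each genotype, while Psmb8 minus Psmb5 overlaps. Psmb10 is already apart on its own in each genotype, and Psmb7 is apart the other way in NOS3-TG. Psme3 minus Psme1 runs from 1.00 to 1.76 on the TAC arrays and from -0.13 to 0.31 on the baseline arrays. That follows from each of these 2 genes being apart on its own.

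In the regulatory particle the ATPase ring, whose Psmc subunits unfold substrates, showed no call in either genotype over its 6 genes. Its differences ran from -0.17 to 0.15 in NOS3-TG and from -0.18 to 0.15 in WT. Over both genotypes Psmc5 rose by 0.15 ± 0.05 (adjusted p = 0.0332 by limma), but its second probe gave -0.10 and the call was lost without any of 11 single arrays (adjusted p by limma up to 0.069). Psmc2 fell over both genotypes by 0.17 on the log2 scale (adjusted p = 0.0128 by limma). Its call was lost under quantile normalization, at -0.11 (adjusted p = 0.0601 by limma), and with no filter on dim probes, normexp or scan day as a block (adjusted p = 0.0605, 0.0967 and 0.0881). On their brightest probes the scaffold genes Psmd1 and Psmd2 and the ubiquitin receptor Psmd4 had no call. They lay between -0.08 and 0.03 in NOS3-TG and between 0.17 and 0.27 in WT. A second Psmd4 probe, well above background on 10 arrays, gave 0.54 in NOS3-TG and 0.78 in WT. A second Psmd2 probe gave -0.06 and 0.12.

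The lid, which removes ubiquitin chains from substrates, had 1 call over 8 genes. Psmd7, a partner of the deubiquitinase Psmd14, had 4.14, 4.10, 4.11 and 4.19 in NOS3-TG TAC, against 3.98, 4.05, 3.97 and 4.04 in NOS3-TG baseline. In WT TAC it had 4.18, 4.06, 4.12 and 3.98, against 3.86, 3.96, 3.82 and 3.95 in WT baseline. The groups were apart in both genotypes on this probe, with a rise of 0.18 ± 0.06 in WT (adjusted p = 0.0461 by limma) and a difference of 0.13 ± 0.06 in NOS3-TG. A second Psmd7 probe gave 0.12 in WT and -0.09 in NOS3-TG, and the remaining probe gave -0.55 in WT and -0.44 in NOS3-TG, so the probes disagreed in direction. The call in WT was lost on leaving out any of 14 single arrays (adjusted p by limma up to 0.131). The assembly chaperones Psmd5, Psmd9 and Psmd10, which help to build the ATPase ring, had no call. Psmc3ip met the naming rule but encodes a recombination factor and no proteasome subunit, and its differences were 0.19 in NOS3-TG and 0.01 in WT.

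**Figure D5:**
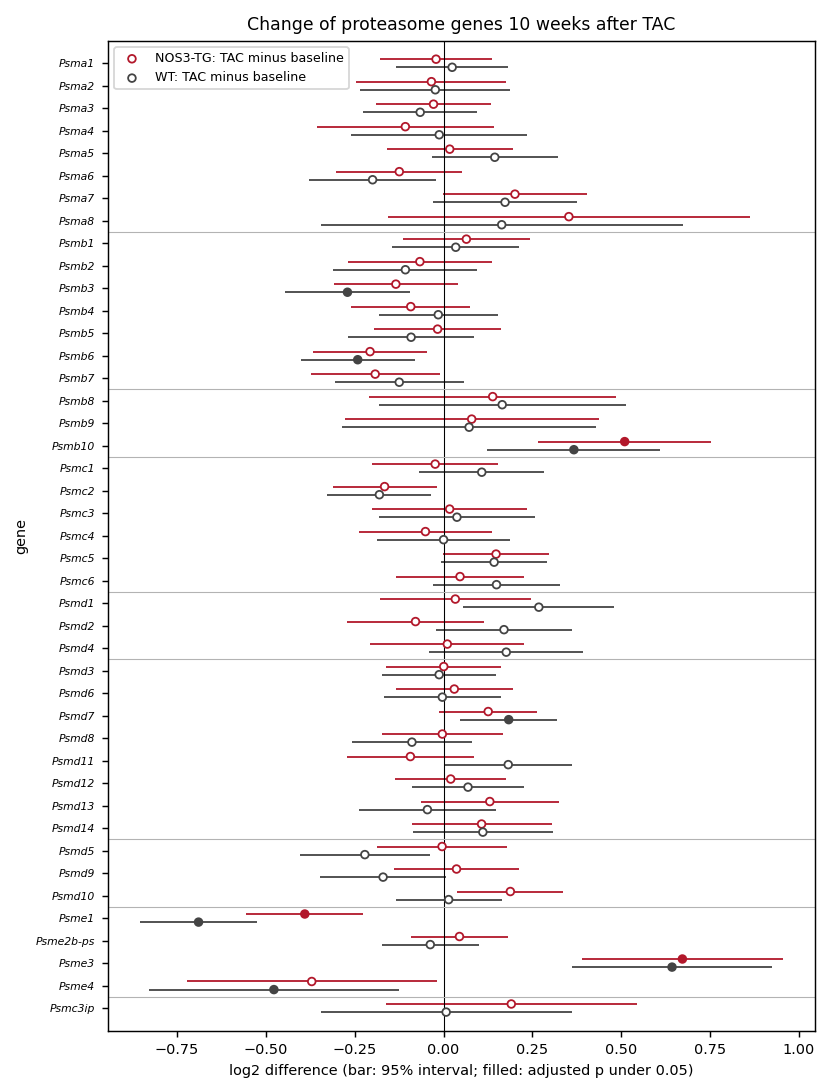
Log2 difference between TAC and baseline for each proteasome gene, in NOS3-TG (red) and WT (grey), with 95% intervals and filled points for an adjusted p under 0.05. Psme1, Psme3 and Psmb10 are filled in both genotypes, and most other intervals cover 0.

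The genes that build or govern the proteasome were read from lists of other names. Their counts stand beside 6.48% of all genes called higher and 5.36% lower in NOS3-TG, and 10.9% and 17.6% in WT. Of 5 measured genes for core assembly and inhibition, 3 fell in WT and none in NOS3-TG was called, with a median of -0.02 in NOS3-TG and -0.30 in WT. The inhibitor Psmf1 fell by 0.32, and the assembly chaperones Psmg1 and Psmg2 by 0.32 and 0.30, on the log2 scale in WT. The maturation factor Pomp differed by 0.17 in NOS3-TG and 0.20 in WT, not called. Of 10 further cap-associated genes, 1 was called in NOS3-TG, the adaptor Fbxo7 at -0.24, and none in WT. Of 6 genes for ubiquitin and its activating enzymes, Ubb fell by 0.28 in WT and none was called in NOS3-TG. Of 10 shuttle and segregase genes, 2 rose in WT, the shuttle Rad23b by 0.40 and Ufd1 by 0.30, and none was called in NOS3-TG. None of 4 measured regulators was called in either genotype, and Nfe2l1, the transcription factor that raises proteasome genes when activity falls, differed by -0.20 ± 0.12 in NOS3-TG and -0.29 ± 0.12 in WT. Nfe2l2, the factor of the oxidative stress response, was not well above background on replicate 2 of WT baseline, at -6.46, and lay between 3.43 and 4.04 on the other arrays. Its difference in WT was 2.51 ± 1.70 with that array and -0.10 ± 0.12 without it, called in neither fit.

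The 9 measured genes for class I antigen processing and its interferon control had a median of 0.18 in NOS3-TG and 0.24 in WT. Of them 1 rose in NOS3-TG and 2 in WT, where 6.48% and 10.9% of all genes were called higher. The called genes were the peptide trimmer Erap1, by 0.29 in NOS3-TG, and in WT the light chain gene B2m, by 0.60, and the transporter gene Tap2, by 0.34. The interferon factor Irf1 differed by 0.11 in NOS3-TG and by 0.11 in WT, not called.

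Genotype alone moved no proteasome gene past the threshold. In NOS3-TG baseline against WT baseline 0 of 43 were called by limma, with 4 at an unadjusted p under 0.05, where 0.415% of all genes tested were called. The smallest adjusted p belonged to Psma5, an alpha ring subunit, which had 5.32, 5.53, 5.52 and 5.36 in NOS3-TG baseline against 5.11, 5.11, 5.09 and 5.20 in WT baseline. All NOS3-TG arrays lay above all WT arrays, with a difference of 0.30 ± 0.08 (adjusted p = 0.144 by limma). On the 2 baseline slides taken singly the difference was 0.32 and 0.29. With array weights 1 gene was called, Psma5, at 0.28 (adjusted p = 0.0356 by limma).

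In NOS3-TG TAC against WT TAC 0 of 43 were called by limma, with 1 at an unadjusted p under 0.05, where 0.281% of all genes tested were called. The proteasome genes lay between -0.18 and 0.23, and 31 of 43 were positive, beside 8094 of 15658 over all genes tested. At baseline 27 of 43 were positive in the same contrast of genotypes, beside 5663 of 15658, so the excess was not particular to TAC. Psme1, given above, was higher on all NOS3-TG TAC arrays than on all WT TAC arrays, by 0.14 ± 0.08 (adjusted p = 0.513 by limma). Psmd10 was the other gene with all NOS3-TG TAC arrays above all WT TAC arrays, and 0 genes had them all below, where 3.6% and 1.95% of all genes did. At baseline, where the arrays of 4 genes (Psma3, Psma5, Psmd7 and Psmd11) were all higher in NOS3-TG and those of 1 (Psmc3ip) all lower, the shares over all genes were 3.89% and 6.07%. Psme1 at baseline was 0.16 lower in NOS3-TG, with overlapping arrays. Macrophage markers were higher in NOS3-TG baseline than in WT baseline in 11 of 11 cases, 2 of them called, where 0.415% of all genes were. In that contrast Psmb8 and Psmb9 differed by 0.25 ± 0.16 and 0.22 ± 0.17 and Psmb10 by 0.02 ± 0.11, none called. The part of macrophages in these differences was not tested.

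No proteasome gene passed the test of a difference between the TAC responses of the genotypes. By limma's interaction term 0 of 43 were called, with 2 at an unadjusted p under 0.05, where 0% of all genes tested were called. The fall of Psme1 was 0.30 ± 0.11 smaller in NOS3-TG, with a 95% interval of 0.07 to 0.53 (adjusted p = 0.654 by limma). Psmd11, a lid subunit, differed by -0.28 ± 0.12 between the responses (adjusted p = 0.665 by limma). For Psme3 the 95% interval of the difference between the responses was -0.37 to 0.43. In males against females 0 of 43 were called and 0 had an unadjusted p under 0.05, where 1.33% of all genes tested were called. The proteasome genes lay between -0.17 and 0.19 in that contrast.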

How the data were processed

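Left ventricular RNA of 16 mice was measured on Agilent one-colour arrays. The intensity values used are the deposited processed signals, background-subtracted per the file headers and not normalized between arrays; the submitters' processing notes name Agilent Feature Extraction 9.5.1.1. Log2 values deposited by the authors for 22057 probes, with no normalization stated, served as an alternative. Control spots and outlier-flagged spots were left out, spots of a probe were averaged, and log2 intensity was reduced by each array's 75th percentile. Surrogate values of the software at very dim spots can distort differences. This does not touch the values of the 43 proteasome genes, all well above background, but very dim spots can enter the spread over all genes tested.

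Probes were named by accession or symbol through RefSeq (22951 by accession, 9768 by symbol or synonym, 8455 under the file's name). Each gene was read from its brightest probe, and 15658 genes with that probe well above background on at least 4 arrays entered limma 3.58.1 in R 4.3.3, with 4 group means and a sex term. Adjusted p-values are two-sided, Benjamini-Hochberg over all genes in each of 7 comparisons. The number of arrays limits the precision.

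Genes and lists were chosen with earlier results of these data known. Per-array values are given for the exchangeable beta subunits, the activators, and genes called with groups apart. Alternatives were other background corrections, normalizations, filters, probe rules, blocks and left-out arrays. A sex-by-TAC comparison, and the 2 arrays of one slide and sex as a block, were added after seeing the data.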

Additional observations from a re-analysis of the deposited data

Results flagged for a closer look

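Of 172 sets of 4 arrays, 1 per proteasome gene and group, 5 held an array apart from the other 3 beyond Dixon's 95% limit. Chance gives about 1 in 20, which is a larger share than 5 of 172. Psmb5 was low in replicate 3 of NOS3-TG TAC at 4.49, with the nearest array at 4.71, and in replicate 2 of NOS3-TG baseline at 4.51, with the nearest at 4.74. These are the 2 arrays with the lowest share of probes well above background, 46.2% and 44.2%, and the part of that share in the values was not tested. Psmd5 was low in replicate 3 of NOS3-TG TAC at 1.76, with the nearest array at 1.94. Psmd1 was low in replicate 2 of WT TAC at 2.74, with the nearest at 3.00, and Psma5 was high in replicate 4 of WT baseline at 5.20, with the nearest at 5.11.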

How the results depend on the processing

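Psme1 and Psme3 kept their calls in WT under all 29 alternatives and over both genotypes under all 28, and Psmb10 did so over both genotypes. In NOS3-TG, Psme1 lost its call in a fit of only the groups compared (adjusted p = 0.0562 by limma), Psme3 without the 3 arrays farthest in share above background (adjusted p = 0.111), and Psmb10 under both and with scan day as a block. In WT the calls of Psmb10, Psmb3, Psmb6, Psme4 and Psmd7 held under 19, 21, 21, 12 and 8 of 29 alternatives. With the mean of all probes Psmd7 turned to -0.081 in WT and -0.11 over both genotypes. The cause was not tested.

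In WT the 3 genes called higher became 5 in the authors' values, 7 under quantile normalization, and 1 with no filter on dim probes, normexp, only the groups compared, scan day as a block or without the 3 arrays. The 4 called lower became 7 with array weights, 2 with scan day as a block, and 1 with no filter, only the groups compared or quantile normalization. In NOS3-TG the 2 higher became 1 with only the groups compared or scan day as a block and 0 without the 3 arrays, and the 1 lower became 2 with array weights, the authors' values or quantile normalization and 0 with only the groups compared. Over both genotypes the 5 higher became 3 with the mean of all probes, normexp or slide as a block, and 2 with no filter, scan day as a block or without the 3 arrays, and the 6 lower became 3 with no filter or quantile normalization and 2 with scan day as a block. In NOS3-TG baseline against WT baseline 1 was called higher with array weights. Leaving out 1 array at a time gave 1 to 4 higher and 1 to 4 lower in WT, and 3 to 6 higher and 5 to 7 lower over both genotypes. In WT, 1 was called higher without replicate 3 of WT TAC or replicate 1, 2 or 3 of WT baseline, and 1 was called lower without replicate 4 of WT TAC or replicate 2 of WT baseline.

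No paired analysis was possible because the labels give the groups no shared replicate numbers and condition lies between slides, where the within-slide correlation was 0.06. Genotypes could be compared within slides: with slide as a block, or with the 2 arrays of one slide and sex as a block, 0 of 43 were called by limma between genotypes at baseline, after TAC or in the interaction, and Psma5 at baseline was 0.30 (adjusted p = 0.174 and 0.15).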

Other observations

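Psme3 after TAC was higher in females than in males, a pattern seen after the values were examined. Its log2 relative signal averaged 3.28 in the 4 females, running from 3.03 to 3.48, and 2.93 in the 4 males, running from 2.79 to 3.10. At baseline it averaged 2.44 in females and 2.45 in males. The TAC response in females minus that in males was 0.36 ± 0.17 (adjusted p = 0.465 by limma), and 0 of 43 proteasome genes and 0% of 15657 genes were called in that comparison. Males lay at positions 1 and 3 and females at positions 2 and 4 of every slide, so that position and sex cannot be told apart. The thymus-specific subunit Psmb11, listed under another name in the files, was well above background on 1 of 16 arrays by either probe.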
